A study of Homo sapiens with 9 samples.

Results

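The ErbB family comprises 4 receptor genes (EGFR, ERBB2, ERBB3 and ERBB4), and 6 genes for ligands that bind them (AREG, EREG, HBEGF, TGFA, BTC and NRG1) were taken with them by name, giving 10 of the 58676 genes in the count table. Their RNA was measured in OVCA433, an established human cell line of serous ovarian adenocarcinoma. Cells were transduced with lentivirus carrying MPZL3 shRNA hairpin #1, MPZL3 shRNA hairpin #3 or a control shRNA vector, and each group had 3 libraries, A, B and C. MPZL3 encodes an immunoglobulin domain transmembrane protein with a predicted role in cell adhesion. All 3 groups share the same line and growth medium, cells were selected with puromycin and no picking of clones is described, and the sources describe the control both as an empty vector and as a scramble hairpin, so whether it expresses a hairpin is uncertain. The study states 3 biological replicates per condition. Nothing states whether they were transduced separately, so p-values measure the spread between these libraries.

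ErbB receptors are tyrosine kinases that pair when a ligand binds, and the pair then signals through the RAS-ERK and PI3K-AKT pathways. EGFR binds AREG, EREG, HBEGF, TGFA and BTC, ERBB3 and ERBB4 bind neuregulins such as NRG1, and ERBB2 has no known ligand and acts as the preferred partner of the others. Most ligands are made as membrane precursors that metalloproteases cut free. In ovarian epithelium and its tumours these genes are known for growth control and for autocrine loops, in which a cell makes both ligand and receptor.

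Among the 5 tested ligands, AREG and HBEGF had the largest decreases after knockdown, and EGFR was the receptor that rose. The 250 bases before the RefSeq transcript start of these 3 genes are shown 5′ to 3′ to give the proximal promoter of each gene (GRCh38.p14, windows chr4:74444886-74445135 plus strand for AREG, chr5:140346604-140346853 minus strand for HBEGF and chr7:55018767-55019016 plus strand for EGFR). Whether these bases took part in the changes was not tested. Capitals mark matches to 2 of 3 motifs searched on both strands, the E-box, written CACCTG and shown as CAGGTG where it lies on the other strand, bound by SNAIL and ZEB repressors and the cyclic AMP response element (CRE) TGACGTCA; the third motif, the AP-1 site TGANTCA, had no match in these 3 windows.
AREG: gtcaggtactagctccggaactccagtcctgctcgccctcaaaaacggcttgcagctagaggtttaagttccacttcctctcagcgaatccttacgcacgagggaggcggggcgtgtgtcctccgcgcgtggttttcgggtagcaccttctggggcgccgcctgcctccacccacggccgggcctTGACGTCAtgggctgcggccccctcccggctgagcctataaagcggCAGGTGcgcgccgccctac
HBEGF: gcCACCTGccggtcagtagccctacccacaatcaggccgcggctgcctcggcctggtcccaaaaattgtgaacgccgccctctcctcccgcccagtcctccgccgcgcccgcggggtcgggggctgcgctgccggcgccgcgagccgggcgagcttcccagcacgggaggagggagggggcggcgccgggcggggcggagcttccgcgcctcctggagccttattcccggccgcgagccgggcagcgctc
EGFR: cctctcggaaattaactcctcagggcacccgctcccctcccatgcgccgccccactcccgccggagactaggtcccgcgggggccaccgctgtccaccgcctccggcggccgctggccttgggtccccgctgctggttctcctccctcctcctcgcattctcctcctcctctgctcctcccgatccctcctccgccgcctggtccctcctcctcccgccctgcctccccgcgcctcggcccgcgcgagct
The AREG window held an E-box 19 bases and a CRE 65 bases before the start, the HBEGF window held an E-box 248 bases before it, and the EGFR window held none of the 3 motifs. Windows of 8 of the 10 genes were searched, and ERBB3 and NRG1 were left out. An E-box was found for AREG, HBEGF, EREG and BTC and for none of TGFA, EGFR, ERBB2 and ERBB4, and an AP-1 site was found for ERBB2 alone, 222 bases before its start. Over all 35116 windows of this length, 17.493% held the E-box, 6.573% the AP-1 site and 1.646% the CRE. These matches describe letters in the window and do not show binding.

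The 9 libraries held 16850854 to 23890191 counts each. MPZL3 itself was at 19.5 ± 3.42 CPM in control cells (CPM being counts scaled to library size with TMM factors; SD, n = 3), 1.89 ± 0.0926 with hairpin #1 and 1.58 ± 0.514 with hairpin #3, that is 9.66% and 8.07% of control. The serous and epithelial markers PAX8, SOX17, MECOM and the keratins were detected, while WT1 had 0 counts in every library. This list of 11 markers summed to 11551 to 14350 CPM in control libraries, to 5471 to 6926 with hairpin #1 and to 5393 to 5987 with hairpin #3, and 6 of its 10 tested members fell at least 2-fold, with CDH1 (E-cadherin) going from 275.3 to 0.112 and 0.148 CPM. EPCAM went from 402.6 to 5.48 and 8.93 CPM, and MUC16 from 3.18 CPM to 0 with both hairpins. In the same list PAX8 and SOX17, transcription factors of the serous lineage, rose, by 1.07 and 0.96 on the log2 scale (edgeR adjusted p = 2.25e-05 and 0.00106). Fibroblast and mesothelial markers summed to 76.07 to 101.7, 169.4 to 540 and 617.2 to 1046 CPM in the same order, with DCN at 0 throughout. COL1A1 went from a mean of 17.88 to 312.2 and 641.2 CPM, and PDGFRB from 0.555 to 13.8 and 16.82. MSLN, the largest part of the control sum, went from 68.39 to 85.89 and 148.9 CPM. LUM stood at 1.55, 4.17 and 2.45 CPM and CALB2 at 0.146, 0.0299 and 0.0686. Endothelial markers summed to 0.398 to 0.621, 1.495 to 4.073 and 3.295 to 5.845 CPM, with CDH5 higher by 4.86 on the log2 scale (edgeR adjusted p = 6.208e-05) and PECAM1 at mean levels of 0.0325, 0.0585 and 0.0938 CPM. Leukocyte markers summed to at most 1.31 CPM in any library. The part of these marker shifts in the ErbB results was not tested. In bulk RNA, fewer cells expressing a gene and less RNA per cell cannot be told apart.

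Compared with control, most of this family was lower after MPZL3 knockdown and EGFR was higher. All 5 measurable ligands (AREG, HBEGF, TGFA, BTC and NRG1) and the receptors ERBB2 and ERBB3 fell, EGFR rose, and ERBB4 did not pass the test. Of the 10 genes, 9 had enough counts to be tested, and with both hairpins pooled 7 fell and 1 rose at an adjusted p under 0.05 (edgeR quasi-likelihood test, Benjamini-Hochberg over 15975 genes). Over all tested genes, 17% fell and 15.9% rose by the same rule. With a further threshold of a 2-fold change, 2 members fell, AREG and HBEGF, against 7.4% of all genes. For 7 members the highest of the 6 knockdown libraries was lower than the lowest of the 3 control libraries, and for 1 member the order was the other way round, where 17.6% and 15.5% of all tested genes did so. The median log2 fold change was -0.36 for the receptors and -0.92 for the tested ligands, beside 0.0045 for all tested genes.

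**Figure D1:**
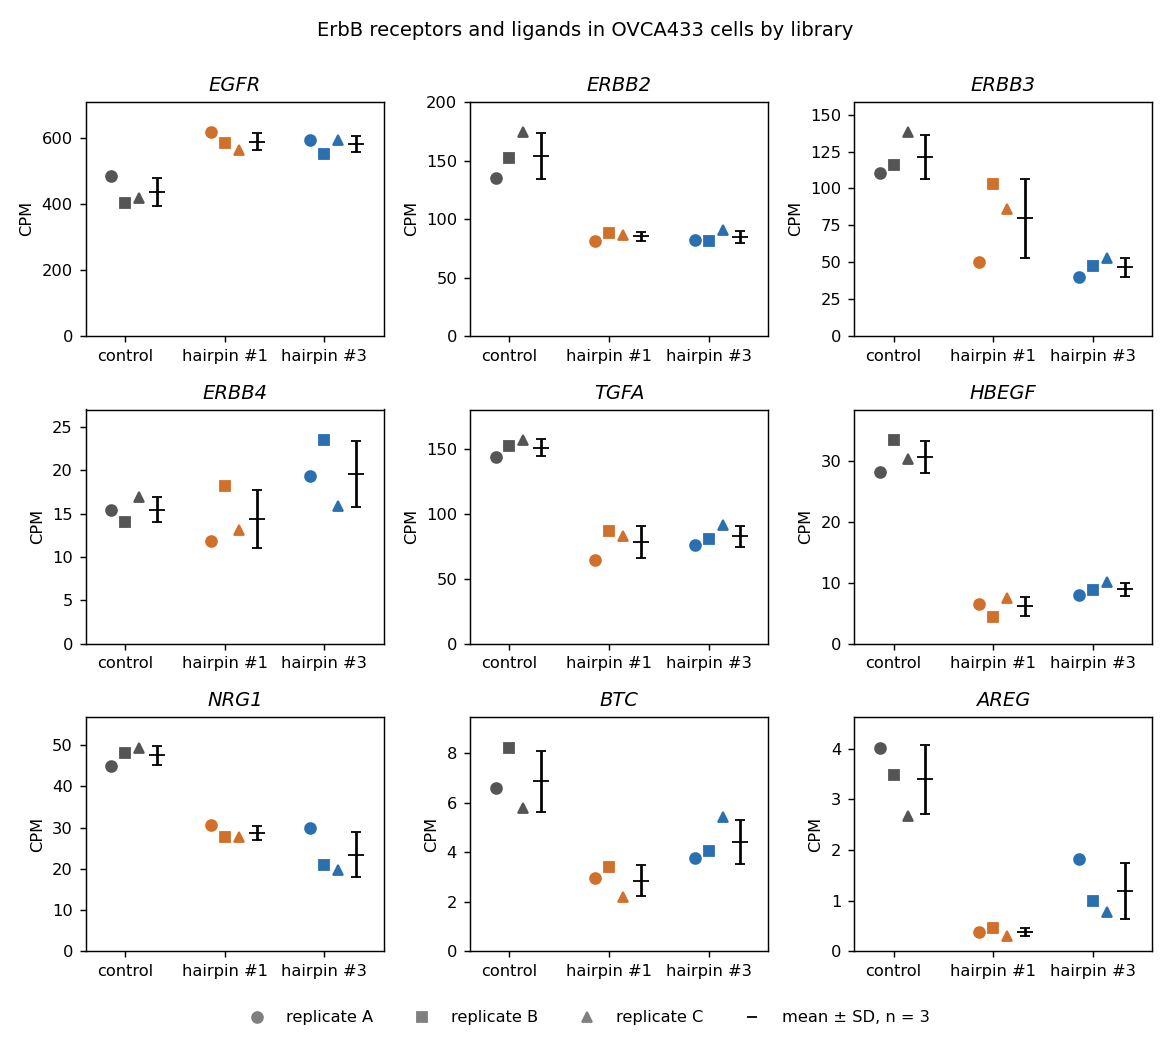
Level of each tested member in CPM (linear axes from 0) in the 9 libraries, with circles, squares and triangles for replicates A, B and C and a bar for the mean ± SD of 3 libraries. For AREG, HBEGF, TGFA, BTC, NRG1, ERBB2 and ERBB3 every knockdown library lies below every control library, for EGFR every one lies above, and ERBB4 overlaps.

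EGFR (ENSG00000146648, chromosome 7, 55019021 to 55256620, hg38, plus strand) is the receptor for most of the ligands described here. It measured 486.5, 404.7 and 419.3 CPM in control A, B and C, 617.6, 586.8 and 565.2 with hairpin #1 and 594.2, 553.5 and 595.8 with hairpin #3. The groups of knockdown and control libraries did not overlap, and the lowest knockdown library was hairpin #3 B. The pooled log2 fold change was 0.42 (SE 0.0875, edgeR adjusted p = 0.0028), a 1.34-fold rise, and the hairpins gave 0.43 and 0.41 against control. An antisense transcript, EGFR-AS1, shares 186 exonic bases with EGFR and had at most 16 counts in any library; the libraries were non-directional, so its reads cannot be told apart from EGFR reads.

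ERBB2 (ENSG00000141736, chromosome 17, 39687914 to 39730426, plus strand), the partner receptor without a ligand, went the other way. It measured 134.8, 152 and 174.1 CPM in control cells, 81.17, 87.91 and 86.13 with hairpin #1 and 82.03, 81.2 and 90.5 with hairpin #3. All 6 knockdown libraries lay in a narrow band below the lowest control library. Pooled over hairpins, the log2 fold change was -0.86 (SE 0.0887, edgeR adjusted p = 1.518e-05), so ERBB2 stood at 55.4% of control with hairpin #1 and at 55% with hairpin #3. Exons of MIEN1 and PGAP3 on the opposite strand overlap those of ERBB2 by 571 and 194 bases, 5.532% and 1.88% of its exonic length.

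ERBB3 (ENSG00000065361, chromosome 12, 56079857 to 56103505, plus strand), a neuregulin receptor with a weak kinase that signals through its partners, fell with both hairpins but unevenly. It measured 110.4, 115.6 and 138 CPM in control cells, 50.33, 102.8 and 86.05 with hairpin #1 and 40.01, 47.13 and 52.57 with hairpin #3. Hairpin #1 A was well below hairpin #1 B and C and near the hairpin #3 libraries, while hairpin #1 B came close to the control range. Over both hairpins the log2 fold change was -0.94 (SE 0.259, edgeR adjusted p = 0.015). Without control C it was -0.84 and the adjusted p was 0.069. Against control, hairpin #1 gave -0.61 (SE 0.202, edgeR adjusted p = 0.0304), which was lost without control B (adjusted p = 0.0579), control C (0.109) or hairpin #1 A (0.0541); without hairpin #1 A the value was -0.36. Hairpin #3 gave -1.38 (SE 0.207, edgeR adjusted p = 0.000155), a 2.6-fold decrease.

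ERBB4 (ENSG00000178568, chromosome 2, 211375717 to 212538841, minus strand), the other neuregulin receptor, was the lowest of the receptors. It measured 15.45, 14.08 and 16.87 CPM in control cells, 11.78, 18.16 and 13.12 with hairpin #1 and 19.3, 23.48 and 15.83 with hairpin #3. Knockdown libraries lay on both sides of the control range, 3 above it and 2 below it. The pooled log2 difference was 0.13 (95% interval -0.26 to 0.51, edgeR adjusted p = 0.658), an interval that leaves room for a small change either way.

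Of the 5 tested ligands, HBEGF and AREG, both EGFR ligands released from membrane precursors, fell most. HBEGF (ENSG00000113070, chromosome 5, 140332843 to 140346631, minus strand), also a ligand of ERBB4, measured 28.18, 33.44 and 30.39 CPM in control cells, 6.589, 4.324 and 7.417 with hairpin #1 and 7.944, 8.833 and 10.08 with hairpin #3. The highest knockdown library, hairpin #3 C, was far below the lowest control library, control A. The pooled log2 fold change of HBEGF was -2.03 (SE 0.196, edgeR adjusted p = 8.739e-06), a 4.07-fold decrease.

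AREG (ENSG00000109321, chromosome 4, 74445134 to 74455009, plus strand) is amphiregulin, an EGFR ligand of lower affinity. It rested on few reads, with 83, 70 and 56 counts in control A, B and C, 8, 9 and 7 with hairpin #1 and 31, 18 and 17 with hairpin #3. These counts corresponded to 4.019, 3.484 and 2.676 CPM in control cells, to 0.374, 0.458 and 0.30 with hairpin #1 and to 1.824, 0.988 and 0.782 with hairpin #3. None of the 3 groups overlapped with another, with hairpin #1 lowest and hairpin #3 between it and control. The pooled log2 fold change of AREG was -2.13 (SE 0.442, edgeR adjusted p = 0.00285), and hairpin #1 and hairpin #3 gave -3.16 (SE 0.372) and -1.52 (SE 0.323) against control.

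EREG (ENSG00000124882, epiregulin), which lies beside AREG on chromosome 4, had 1 count in control A and 0 counts in the other 8 libraries. It was at or under the limit of 3 counts per library in all groups, so it was not tested and no fold is given.

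TGFA (ENSG00000163235, chromosome 2, 70447280 to 70554193, minus strand) is the EGFR ligand transforming growth factor alpha. It measured 144.1, 152.7 and 157.1 CPM in control cells, 64.25, 86.94 and 83.43 with hairpin #1 and 75.97, 80.93 and 91.37 with hairpin #3. Both knockdown groups covered about the same range, well below control. TGFA changed by -0.91 on the log2 scale (SE 0.104, edgeR adjusted p = 3.289e-05), a 1.88-fold decrease.

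BTC (ENSG00000174808, betacellulin, chromosome 4, 74744759 to 74794686, minus strand) binds EGFR and ERBB4. It measured 6.586, 8.212 and 5.782 CPM in control cells, 2.944, 3.408 and 2.187 with hairpin #1 and 3.766, 4.06 and 5.432 with hairpin #3. Hairpin #3 C came close to control C, while the hairpin #1 libraries were all lower. The pooled log2 fold change was -0.92 (SE 0.244, edgeR adjusted p = 0.0126); without control B it was -0.77 and the adjusted p was 0.0784. Hairpin #1 gave -1.27 (SE 0.224, edgeR adjusted p = 0.000536) and hairpin #3 gave -0.63 (SE 0.218, edgeR adjusted p = 0.0395). The hairpin #3 result was lost without control A (edgeR adjusted p = 0.0597), control B (0.173), hairpin #3 A (0.116) or hairpin #3 B (0.129).

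NRG1 (ENSG00000157168), the neuregulin that binds ERBB3 and ERBB4, lies on chromosome 8. It measured 45.04, 48.07 and 49.37 CPM in control cells, 30.7, 27.83 and 27.7 with hairpin #1 and 29.83, 20.9 and 19.65 with hairpin #3. Hairpin #3 A fell within the hairpin #1 range, and no knockdown library reached the control range. NRG1 changed by -0.86 on the log2 scale (SE 0.141, edgeR adjusted p = 0.000528), with -0.72 for hairpin #1 and -1.02 for hairpin #3.

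Taking each hairpin on its own against the shared control libraries, the 8 members that changed in the pooled comparison changed in the same direction with each hairpin, while ERBB4 passed with neither and stood at -0.11 with hairpin #1 and 0.33 with hairpin #3 on the log2 scale. With hairpin #1, 7 members fell and 1 rose at an adjusted p under 0.05 (edgeR; 19.7% and 18% of all tested genes), and 3 fell at least 2-fold, namely AREG, HBEGF and BTC (8.55% of all genes). With hairpin #3, 7 fell and 1 rose (18.1% and 16.6% of all genes), and 4 fell at least 2-fold, namely AREG, HBEGF, ERBB3 and NRG1 (7.83% of all genes); NRG1 was under 2-fold without control C (-0.99), hairpin #3 B (-0.95) or hairpin #3 C (-0.90). These 2 comparisons use the same 3 control libraries and so are not independent.

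The hairpins were therefore set directly against each other. ERBB3 and AREG differed between them, in opposite directions, which is 2 of 9 tested members beside 11.6% of all tested genes in either direction (edgeR adjusted p under 0.05). ERBB3 was lower with hairpin #3, by a log2 difference of -0.77 (SE 0.205, adjusted p = 0.0264), and AREG was higher, by 1.64 (SE 0.409, adjusted p = 0.019). The ERBB3 difference did not pass without hairpin #1 B (adjusted p = 0.129), hairpin #1 C (0.0843), hairpin #3 A (0.0766) or hairpin #3 B (0.0885). The AREG difference did not pass without hairpin #1 C (adjusted p = 0.0774) or hairpin #3 A (0.0763), the latter at 1.22.

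For the other members the difference of hairpin #3 from hairpin #1 did not pass in the main fit, which has no replicate block. HBEGF differed by 0.55 (95% interval 0.19 to 0.91, edgeR adjusted p = 0.072), BTC by 0.65 (0.20 to 1.10, adjusted p = 0.0927), ERBB4 by 0.45 (0.096 to 0.79, adjusted p = 0.136) and NRG1 by -0.30 (-0.57 to -0.018, adjusted p = 0.219). Same-letter libraries of the hairpins deviated together for A and C but less so for B. Hairpin #1 B correlated at 0.119 with hairpin #3 B and at 0.276 with hairpin #3 C. With the replicate letter as a block HBEGF (0.55, edgeR adjusted p = 0.0246), BTC (0.66, adjusted p = 0.0426) and ERBB4 (0.45, adjusted p = 0.0398) passed, while NRG1 did not (-0.31, adjusted p = 0.0767). Leaving out 1 library without the block, NRG1 passed without hairpin #3 A (-0.50, edgeR adjusted p = 0.0118), HBEGF without hairpin #1 C (0.71, adjusted p = 0.041) and ERBB4 without hairpin #1 B (0.65, adjusted p = 0.0397). The intervals were narrower around 0 for EGFR (-0.22 to 0.17), ERBB2 (-0.21 to 0.20) and TGFA (-0.15 to 0.32). MPZL3 differed by -0.25 (-0.76 to 0.25, edgeR adjusted p = 0.614). All these intervals take the SE with a normal multiplier and are narrower than the edgeR test implies. The NRG1 interval left out 0, while its unadjusted edgeR p was 0.057.

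**Figure D2:**
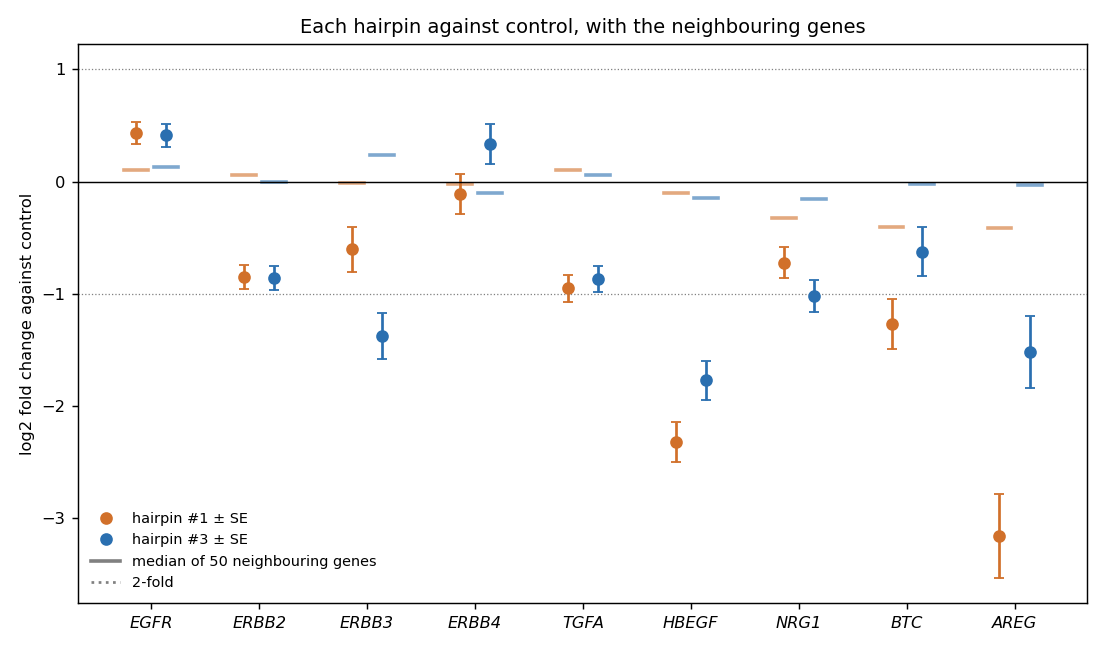
Log2 fold change of each tested member against control (points, with the SE) for hairpin #1 and hairpin #3, on the vertical axis. Short bars give the median of the 25 tested genes on each side of it along its chromosome, and dotted lines mark a 2-fold change. AREG lies at -3.16 and -1.52 and HBEGF at -2.32 and -1.77, while the bars lie between -0.41 and 0.24.

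To see how far each member moved with its stretch of chromosome, its log2 fold change was set beside the median of the 25 tested genes on each side. The pooled medians were close to 0 around EGFR (0.116), ERBB2 (0.0507), ERBB3 (0.135), ERBB4 (-0.0785), TGFA (0.0921) and HBEGF (-0.122). They were lower around AREG (-0.214), BTC (-0.201) and NRG1 (-0.25), against which these genes stood at -2.13, -0.92 and -0.86. AREG and BTC share most of their neighbours on chromosome 4, where the median was -0.415 around AREG with hairpin #1 and -0.0347 with hairpin #3. The difference of hairpin #3 from hairpin #1 had a median of 0.366 around both genes and of 0.406 over chromosome 4, beside 1.64 for AREG and 0.65 for BTC. BTC thus exceeded its neighbours by 0.28 on the log2 scale in that contrast, and AREG by 1.28. Around ERBB3 the neighbours differed by 0.212, the opposite sign to ERBB3 itself. A median can hide single neighbours. Of the 50 genes around ERBB2, 6 fell at least as far as ERBB2 (-0.86) in the pooled comparison. They included GRB7, just past ERBB2 on chromosome 17, at -0.91 (edgeR adjusted p = 0.00136). GRB7 was chosen after its values were seen. Whether copy number took part in these shifts was not tested.

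Levels of different genes were compared as TPM, which divides counts by gene length before scaling each library to the same total. In control cells EGFR (126.9 ± 19.2 TPM; SD, n = 3) and TGFA (114.2 ± 1.11) were highest and their ranges overlapped. ERBB2 (55.6 ± 4.74) and ERBB3 (52.4 ± 4.55) followed, also overlapping, then HBEGF (38.1 ± 2.32) and NRG1 (15.7 ± 0.103), each apart from its neighbours in the order. BTC (9.14 ± 1.65) and AREG (7.77 ± 1.91) overlapped, ERBB4 (4.46 ± 0.417) was lower, and EREG was at 0.0112. After knockdown EGFR stood alone at the top, at 172.2 ± 14.5 TPM with hairpin #1 and 171.3 ± 9.64 with hairpin #3, above TGFA at 59.4 ± 8.1 and 63.5 ± 3.76. HBEGF went from the fifth place in control to the sixth with hairpin #1, where its range overlapped that of NRG1. ERBB3 ranked below ERBB2 without overlap with hairpin #3, while both overlapped with hairpin #1.

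**Figure D3:**
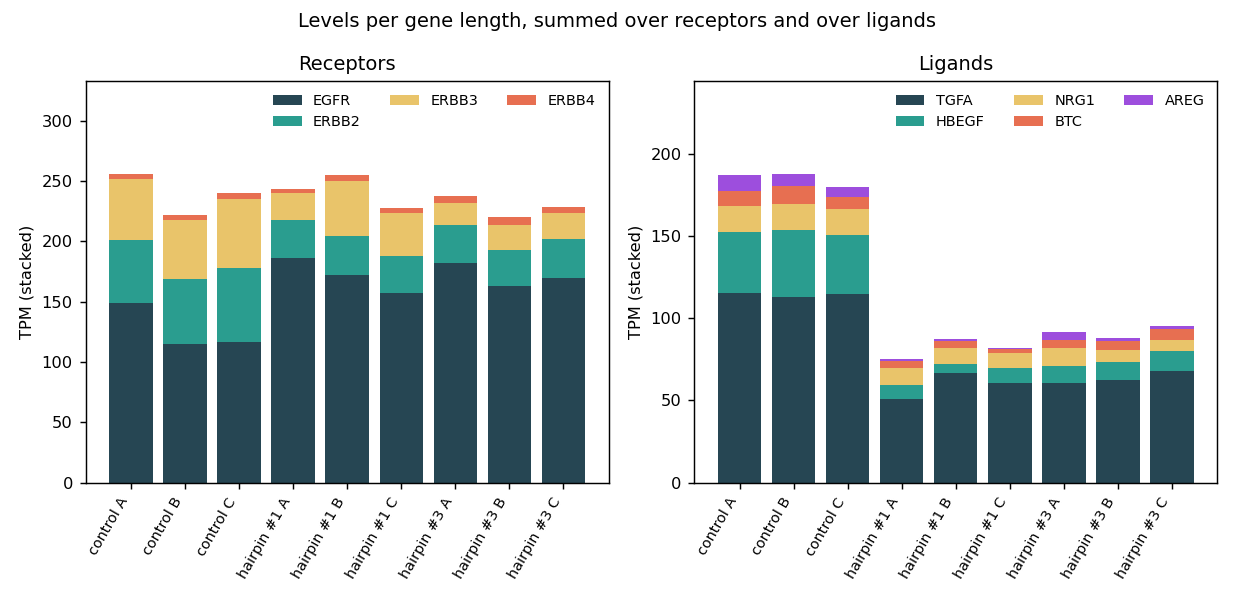
Stacked TPM of the receptors (left) and ligands (right) in each of the 9 libraries; EREG is left out because it was at or near 0. The receptor columns total 220.4 to 256.2 TPM in all groups, with a taller EGFR segment after knockdown, while the ligand columns drop from 179.8 to 187.8 TPM in control to 74.85 to 95.36.

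Summed over the 4 receptors, the level stayed in 1 range, at 239.4 ± 17.2 TPM in control cells, 242.2 ± 14.1 with hairpin #1 and 228.8 ± 8.55 with hairpin #3 (SD, n = 3). Its makeup differed. EGFR made up 52.8% ± 4.85 of receptor TPM in control cells, 71.1% ± 4.79 with hairpin #1 and 74.8% ± 1.48 with hairpin #3. The share of ERBB2 was 23.3%, 12.9% and 13.7% in that order, and that of ERBB3 was 22%, 14.3% and 8.97%. The ligands together stood at 184.9 ± 4.43 TPM in control cells, 81.3 ± 6.2 with hairpin #1 and 91.6 ± 3.63 with hairpin #3, without overlap between control and either hairpin. TGFA was the largest ligand share in each group, at 61.8% ± 1.72, 72.8% ± 4.54 and 69.4% ± 2.51, while HBEGF went from 20.6% ± 0.97 to 9.51% ± 2.83 and 12.3% ± 0.783. These sums and shares were not tested.

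The members also differed in which other genes followed the same profile over the 9 libraries, measured as the root mean square difference of log2 CPM after each gene's own mean was removed. Within the family, ERBB2 and TGFA were the nearest pair, at 0.118. The nearest genes of at least 10 mean CPM were DIP2A (0.0573) and GULP1 (0.0628) for EGFR, FYN (0.0566) and RP11-54H7.4 (0.0819) for ERBB2, STXBP2 (0.165) and TSPAN15 (0.186) for ERBB3, and ZBTB34 (0.139) and BDNF (0.157) for ERBB4. For the ligands they were SH3TC2 (0.221) and VAMP8 (0.246) for HBEGF, EXPH5 (0.289) and ZNF431 (0.382) for AREG, SH3GLB2 (0.098) and TMEM63A (0.105) for TGFA, UVSSA (0.179) and PLA2G12A (0.181) for BTC, and GSR (0.0852) and KIAA1522 (0.102) for NRG1. The closest companions were those of ERBB2 and EGFR and the most distant those of AREG. AREG had at most 4.019 CPM in any library, below the mean of 10 CPM asked of its companions. Few counts and a large change both widen this distance, so the order partly reflects depth and size of change.

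Other genes of the pathway were then counted by role, with both hairpins pooled and the 2-fold threshold applied. Of all 15975 tested genes, 1160 rose and 1182 fell by this rule. Of 5 further EGF family ligands 3 were tested, and 2 fell. EPGN (epigen, an EGFR ligand beside EREG and AREG on chromosome 4) went from 8.23 ± 0.583 CPM in control cells to 2.58 ± 1.05 and 1.61 ± 0.512 under hairpin #1 and #3 (pooled log2 fold change -1.97, edgeR adjusted p = 0.000195). NRG4, a neuregulin that binds ERBB4, had 24 to 29 counts in control libraries and 2 to 6 in knockdown libraries (log2 fold change -2.68, edgeR adjusted p = 0.000185). EGF itself did not pass (log2 difference -0.44, edgeR adjusted p = 0.182).

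Of 9 genes for ligand release, 1 rose and 1 fell at least 2-fold. By an edgeR adjusted p under 0.05 alone, 1 rose and 4 fell, and the median was -0.38. ADAM9, a membrane metalloprotease, went from 643.7 ± 25.5 to 243.5 ± 28.1 and 268.3 ± 14.7 CPM with hairpin #1 and #3 (log2 fold change -1.33, edgeR adjusted p = 5.821e-07). ADAM12, a related protease, rose by 2.93 on the log2 scale from few counts, 1 to 7 in control and 19 to 44 in knockdown libraries (edgeR adjusted p = 0.000771). ADAM17, the main sheddase of AREG, HBEGF and TGFA, did not pass with both hairpins pooled (log2 difference 0.13, edgeR adjusted p = 0.423). Hairpin #1 alone passed against control (0.27, edgeR adjusted p = 0.0432), and hairpin #3 did not (-0.028, edgeR adjusted p = 0.861). ADAM17 is named for its role as a sheddase and was chosen after its values were seen.

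Of 12 negative regulators of the receptors, 3 rose and 1 fell at least 2-fold. By an edgeR adjusted p under 0.05 alone, 3 rose and 2 fell, and the median was 0.10. LRIG1, a transmembrane protein that promotes loss of ErbB receptors, went from 4.43 ± 0.159 to 25.7 ± 1.86 and 9.63 ± 1.04 CPM under hairpin #1 and #3, a log2 difference of -1.42 between the hairpins (edgeR adjusted p = 1.583e-05). LRIG3, of the same family, rose by 1.14 (edgeR adjusted p = 0.000159). CBLB, a ubiquitin ligase of the CBL family that marks activated receptors for breakdown, rose by 2.07 (edgeR adjusted p = 4.3e-06). CBLC, the epithelial member of that family, fell from 37.04 ± 6.43 CPM in control cells to 0 counts in all 3 hairpin #1 libraries and to 9 to 12 counts in the hairpin #3 libraries.

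Of 29 adapters and transducers, 28 were tested and none changed at least 2-fold in the edgeR test; at an adjusted p under 0.05 alone, 5 rose and 6 fell, and the median was -0.019. Of 17 genes that ERK signalling induces or that feed back on it, 1 rose and 3 fell at least 2-fold. At an edgeR adjusted p under 0.05 alone, 3 rose and 3 fell. EGR1, an immediate early transcription factor, went from 17.55 ± 2.11 to 1.82 ± 0.893 CPM with hairpin #1 and 0.682 ± 0.37 with hairpin #3 (log2 fold change -3.79, edgeR adjusted p = 1.914e-05). The ERK phosphatase gene DUSP4 fell by 1.16 and the cyclin D1 gene CCND1 by 1.08 on the log2 scale, while EPHA4, an ephrin receptor, rose by 2.01. The median of the 17 genes was -0.065. The lists were chosen with earlier results of these data known.

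**Figure D4:**
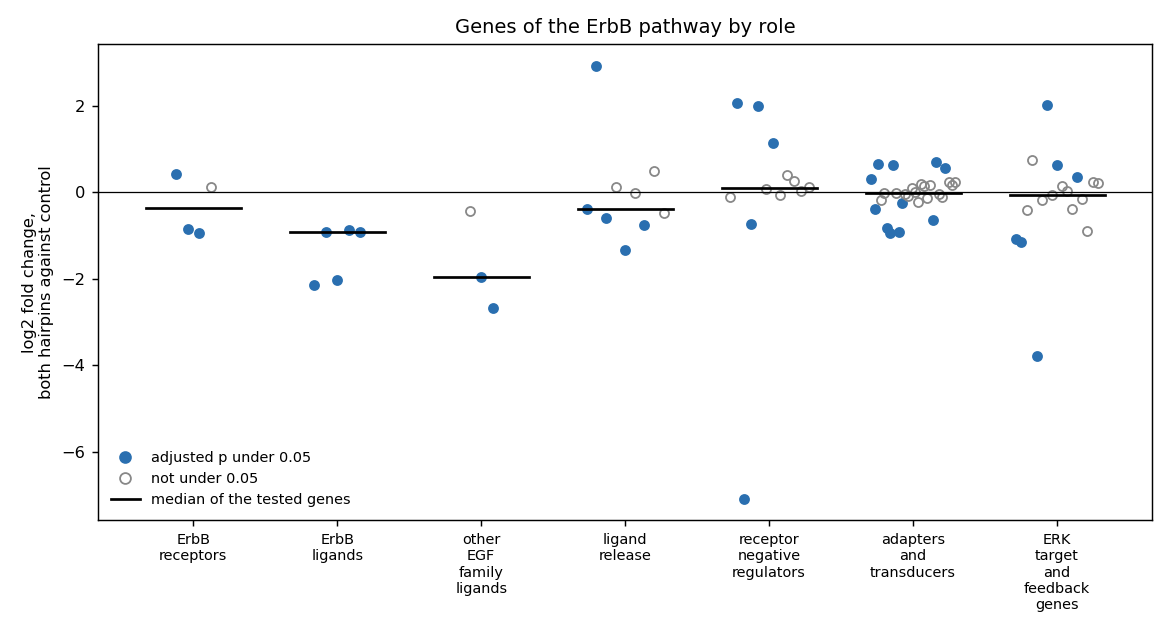
Pooled log2 fold change of every tested gene of the ErbB pathway (vertical axis) by role, filled where the adjusted p is under 0.05 and open otherwise, with a line at the median of each list. The 5 tested ligands and 3 further EGF family ligands lie below 0, and the medians of adapters and of ERK targets are near 0. The lowest point, CBLC, pools 0 counts with hairpin #1 and a mean of 0.56 CPM with hairpin #3.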

How the data were processed

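Poly(A)-selected, non-directional RNA libraries of OVCA433 cells were sequenced, 9 in all. The authors aligned the reads to hg38 with HISAT2 (version 2.0.5) and deposited raw read counts per gene; the submitters' processing notes also name featureCounts (version 1.5.0-p3). Of 58676 genes, 26762 had 0 counts in every library. Groups came from the labels. From the deposited counts, edgeR 4.0.16 (R 4.3.3) was run with TMM scaling, its filterByExpr function (15975 genes kept, 99.889% of counts) and the quasi-likelihood test, with Benjamini-Hochberg adjustment. Pooled knockdown against control used 2 groups, and each hairpin against control and hairpin #3 against hairpin #1 used 3 groups and all libraries. A gene was called at an adjusted p under 0.05, and at 2-fold where stated. SE was the log2 fold change divided by the root of F. The biological coefficient of variation was 18.17% with 2 groups and 13.06% with 3. TPM used the gene lengths in the count table. Named genes were the members, MPZL3, at most 4 genes called per pathway list by size of change, and the 2 nearest profiles per member. Members, lists and tests were chosen with earlier results of these data known. Deviations from the group means, over 9693 genes, correlated between same-letter libraries at 0.655, 0.119 and 0.531 (A, B, C) for hairpin #1 and #3, at 0.624, 0.321 and 0.526 for control and hairpin #3, and at 0.611, 0.0651 and 0.436 for control and hairpin #1 (other pairs -0.646 to 0.317). The labels do not say what a letter shares. By this check letters A and C paired the libraries between all groups, and letter B only between control and hairpin #3. The scripts were tested on simulated data. Coordinates of 8 of 10 members equalled those of GENCODE 29. Promoter windows came from RefSeq (GRCh38.p14) and end just before its transcript starts, which can differ from the gene bounds in the count table. EGFR and TGFA had 2 starts there, and the start nearest the gene bound in the count table was used. Alternatives were other filters and scalings, the DESeq2 1.42.0 Wald test, a replicate block, no fold threshold, a 3-group model and leaving out each library.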

Additional observations from a re-analysis of the deposited data

Results flagged for a closer look

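For 2 of the 9 tested members the level differed between the hairpins in a direct test (edgeR, all 9 libraries), beside 11.6% of all tested genes. Neither difference passed in every fit that left out 1 library, where the edgeR adjusted p reached 0.129 for ERBB3 and 0.0774 for AREG. ERBB3 was lower with hairpin #3 than with hairpin #1, by a log2 difference of -0.77 (adjusted p = 0.0264), with levels of 40.01 to 52.57 CPM against 50.33 to 102.8 CPM; the ranges overlapped through hairpin #1 A alone. AREG was higher with hairpin #3, by 1.64 (adjusted p = 0.019), on 17 to 31 counts against 7 to 9 counts per library. MPZL3 was at 8.07% of control with hairpin #3 and at 9.66% with hairpin #1, and its difference between the hairpins did not pass (adjusted p = 0.614).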

How the results depend on the processing

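The directions of all members against control held under the other filters, scalings, the DESeq2 Wald test, the replicate block and the 3-group model, and so did each call at 2-fold. Without a fold threshold, calls went to 5269 genes and 8 members (pooled), 6032 and 8 (hairpin #1), 5536 and 8 (hairpin #3) and 1857 and 2 (hairpin #3 against #1), against 2342, 2605, 2443 and 628 genes and 2, 3, 4 and 1 members with it; fewer genes pass with an added threshold by construction. Members called in hairpin #3 against #1 ranged from 0 (without hairpin #1 C or hairpin #3 A) to 2 (without hairpin #1 A) when 1 library was left out. In the same way 2 to 3 members were called pooled, 3 to 4 with hairpin #1 and 3 to 4 with hairpin #3. Scaling by library totals turned the sign of that contrast for EGFR (0.00016) and ERBB2 (0.014), both near 0. Leaving out 1 library turned signs for EGFR (-0.049 to 0.012), ERBB2 (-0.054 to 0.0204) and TGFA (-0.046 to 0.17) in that contrast and for ERBB4 with hairpin #1 against control (-0.32 to 0.011). With the replicate letter as a block, ERBB4, HBEGF and BTC passed in hairpin #3 against #1 (0.45, 0.55 and 0.66), and no other member call changed; HBEGF also passed with no filter (edgeR adjusted p = 0.0171) and with DESeq2 (0.0377), and ERBB4 with no filter (0.0439). AREG and BTC rest on at most 165 counts per library, which limits their precision. The cause of these shifts was not tested.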
